A study of Homo sapiens with 8 samples.

Results

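The genes described here are 33 members of the NRF2 pathway: the transcription factor NRF2 itself (gene NFE2L2), its inhibitor KEAP1, and 31 genes that NRF2 is known to drive. The rule lists them by symbol and uses no measured value, and all 33 were found among the 58302 genes in the files. The list was nonetheless chosen with earlier results of these data known. RNA sequencing was done on 8 libraries of A549, an established human lung adenocarcinoma cell line whose KEAP1 gene is mutant, in 4 groups of 2. The groups were cells with a control short hairpin RNA (shRNA), cells with an shRNA against the receptor tyrosine kinase AXL, control cells with no hairpin named, and cells given 40 nM TP-0903, a small-molecule inhibitor of AXL. All 4 groups share the A549 background and the same serum-containing medium, and the labels speak of biological replicates. Titles further hold a P number. Control shRNA and AXL shRNA have 1 library each at P15 and at P3, and control and TP-0903 have 1 library each at P17 and at P4. What this P stands for, the hairpin sequences, the number of clones, the length of treatment and what the control cells received were not given in the sources used here. With both libraries of a group drawn from 1 cell line, the p-values measure the spread between these samples.

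NRF2 is a transcription factor that is made all the time and normally destroyed as fast as it is made: KEAP1 holds it and hands it to a ubiquitin ligase built on CUL3. Electrophiles and oxidants modify cysteines of KEAP1, NRF2 then escapes, enters the nucleus, pairs with a small MAF protein and binds the antioxidant response element in front of its target genes. The targets reduce quinones and carbonyls, make and use glutathione and thioredoxin, supply NADPH, and break down heme and store the iron it releases. In A549 the KEAP1 protein cannot restrain NRF2, and the line is widely used as a model of a tumour in which this programme runs without an inducer.

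The antioxidant response element is the DNA sequence through which NRF2 acts, and its core was looked for in the RefSeq promoter of each gene (GRCh38.p14, 250 bases before to 50 bases after the start). The letters searched were TGACNNNGC on both strands; they can overlap the AP-1 element TGACTCA, as they did in 2 of the 15 matches, those of ME1 and PIR. Of the 33 genes, 27 had a promoter in the table, with 37 promoters between them, and 12 of these (32.43%) held the core, against 4687 of all 35116 promoters (13.35%). Those 12 promoters belong to 11 genes: KEAP1, CBR1, GCLM, GPX2, MGST1, TXNRD1, PGD, ME1, IDH1, EPHX1 and PIR. FTH1, TRIM16L, AKR1B10, GSR, CBR3 and HMOX1 had no entry. The matches shown belong to genes whose levels are described in the results, with the core in capitals.
GCLM: agacaaTGACTAAGCagaaat
GPX2: ccaggaTGACTTAGCaaaaac
TXNRD1: tcagaaTGACAAAGCagaaat
IDH1: tctcgcTGACTCCGCccatcc
PIR: tcaccgTGACTCAGCgcttcg
KEAP1: tcaccaTGACTAAGCagagcc
The GCLM match is at chr1:93909450-93909470, plus strand, 34 bases before the RefSeq start and partly inside the first exon of GENCODE 29. The GPX2 match is at chr14:64942853-64942873, plus strand, 122 bases before the RefSeq start and within a GENCODE exon of a longer transcript. The TXNRD1 match is at chr12:104286924-104286944, minus strand, 102 bases before one of the RefSeq starts and also within a GENCODE exon. The IDH1 match is at chr2:208255200-208255220, minus strand, 143 bases before the RefSeq start and in a GENCODE intron. The PIR match is at chrX:15493293-15493313, plus strand, 26 bases after the RefSeq start and in an exon, and the KEAP1 match is at chr19:10502788-10502808, plus strand, 31 bases before a RefSeq start and in an exon. A match is a string of letters and not a measured binding site.

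The NRF2 targets were among the most abundant transcripts of these cells. On the TPM scale, which is corrected for transcript length and is used here to compare genes, 24 of the 33 genes lay among the 1000 genes of highest median TPM and 7 among the first 100. The median over the 33 of each gene's median TPM was 358, against 14.5 over the 14103 genes with a median of at least 1 TPM. Together the 33 genes held between 4.03% and 6.26% of all TPM of a library, and between 2.01% and 3.31% without the ferritins FTL and FTH1.

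The ferritin chains that store iron led the list. FTL had a lowest, median and highest TPM of 9406, 14428 and 19032 over the 8 libraries, and FTH1 of 8661, 11577 and 14083. Behind them came the aldo-keto reductases, cytosolic enzymes that reduce aldehydes, ketones and quinones with NADPH: the median TPM was 4370 for AKR1C2, 3954 for AKR1B10, 3278 for AKR1B1 and 2080 for AKR1C3. NQO1, the quinone reductase most often used as a readout of NRF2, had a lowest, median and highest TPM of 1648, 2036 and 2711. The regulators were far less abundant as transcripts, with 49.2, 72.1 and 82.8 TPM for NFE2L2 and 39.2, 50.4 and 59.8 TPM for KEAP1. At the bottom were GSTM3, a glutathione transferase, at 11.3 to 23.7 TPM and CBR3, a carbonyl reductase, at 2.06 to 13.0 TPM.

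**Figure D1:**
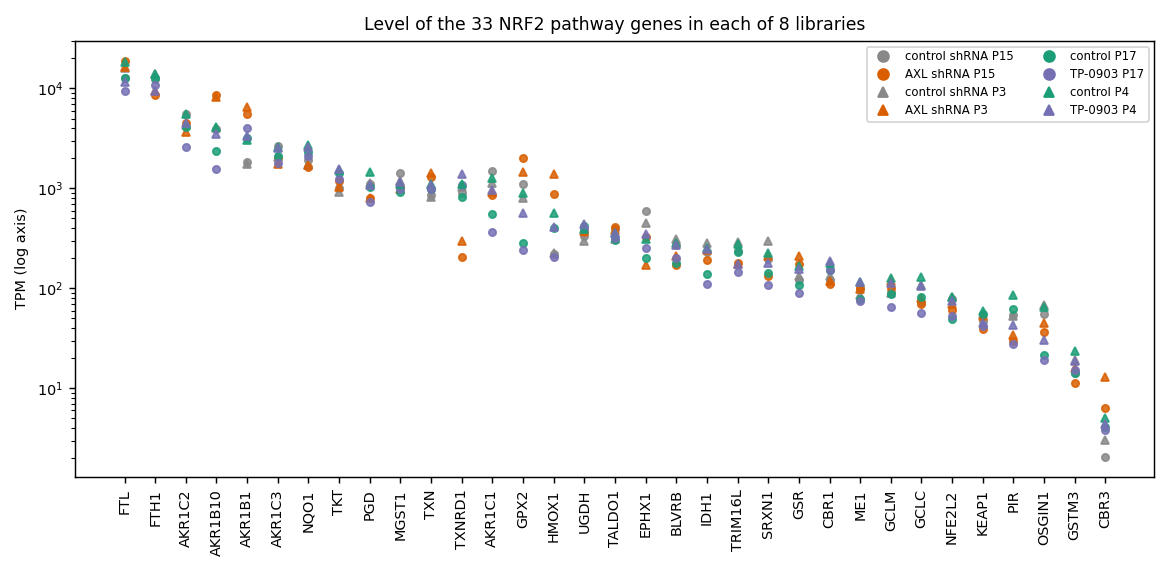
Level of each of the 33 genes in TPM (log axis) in each of the 8 libraries, 1 point per library, coloured by group, with circles for P15 or P17 and triangles for P3 or P4. The ferritins FTL and FTH1 lie between 8661 and 19032 TPM, CBR3 lies between 2.06 and 13.0 TPM, and GPX2, HMOX1 and TXNRD1 have widely spread points.

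Most of the genes held a narrow range and a few did not. The ratio of the highest to the lowest TPM over the 8 libraries had a median of 2.02 over the 33 genes and of 2.13 over the 12410 genes with at least 1 TPM in every library, so as a group these genes were about as variable as expressed genes in general. TALDO1, the transaldolase of the pentose phosphate pathway, varied least, by a ratio of 1.36. The glutathione peroxidase GPX2 varied most, by 8.26, followed by the heme oxygenase HMOX1 at 6.78, the thioredoxin reductase TXNRD1 at 6.69, CBR3 at 6.32 and AKR1B10 at 5.42.

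Part of the sequence of some of these genes is shared with other genes, and how the authors' software divided such reads is an estimate. The share of a gene's transcript sequence, in windows of 50 bases, that also occurs in transcripts of other genes of GENCODE 29 was 84.75% for SRXN1 (nearly all with the overlapping model AL121758.1, whose median was 0.00 TPM), 57.38% for FTH1, 43.14% for TRIM16L (mostly TRIM16), 38.87% for AKR1C2 and 28.62% for AKR1C1 (mostly with each other), 35.71% for CBR3 (all with CBR3-AS1, which lies on the opposite strand), 18.34% for FTL, 15.30% for NQO1 (mostly with the antisense AC092115.2) and 14.81% for AKR1B10. It was 0.00% for GSR, GPX2, TXNRD1, TKT, ME1, BLVRB and EPHX1. The library kit named does not mark strand, so reads of a gene and of an antisense partner cannot be told apart. The levels of SRXN1, FTH1, TRIM16L, AKR1C1, AKR1C2 and CBR3 are uncertain to that extent.

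Library totals ran from 30067011 to 44217023 expected counts, the estimated reads per gene. From here on, levels of a gene are compared between libraries in CPM, the counts divided by the library total and scaled by the trimmed mean of M values. AXL, the gene targeted by the hairpin, stood at 85.1 (P15) and 139 (P3) CPM with control shRNA and at 55.4 and 63.0 with AXL shRNA, and at 216 (P17) and 105 (P4) CPM in control cells and 280 and 153 with TP-0903. Both AXL shRNA libraries were below both control shRNA libraries. The log2 fold change was -0.92 (SE 0.41, adjusted p = 0.12 in edgeR's quasi-likelihood test), and -0.89 with an adjusted p of 8.58e-04 when the P number was a block. With TP-0903 against control it was 0.43 (SE 0.41, adjusted p = 0.544), and 0.46 with an adjusted p of 0.0354 once blocked. CDKN2A, which is deleted in A549, was at 0 TPM in all 8 libraries. The summed level of 5 epithelial markers (KRT8, KRT18, KRT19, EPCAM, CDH1) was 14278 and 17198 TPM with AXL shRNA and 4428 to 9054 TPM in the other 6 libraries. Most of that sum was KRT8 (7404 and 9066 TPM with AXL shRNA) and KRT18 (6279 and 7289). CDH1 overlapped, at 22.4 and 64.7 TPM with AXL shRNA and 13.9 to 45.9 TPM in the others. Markers of other cell types were low: the sums were 12.3 to 28.5 TPM for 7 blood markers, with PTPRC at most 0.02 TPM, and 0.20 to 3.53 TPM for 4 endothelial markers, with KDR at 0. For 5 fibroblast markers the sum was 22.1 and 34.3 TPM with AXL shRNA and 6.76 to 11.4 TPM elsewhere. Among them PDGFRB went the other way, at 0.03 and 0.05 TPM with AXL shRNA and 0.08 to 0.46 TPM elsewhere. Mitochondrially encoded genes held 15.5% (P15) and 17.5% (P3) of TPM with AXL shRNA against 11.03% and 14.0% with control shRNA, and 14.5% (P17) and 15.3% (P4) with TP-0903 against 10.3% and 9.60% in control cells.

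With AXL shRNA, 8 of the 33 genes rose and 1 fell against control shRNA. Over all 17676 genes tested, 18.5% rose and 19.0% fell (37.5% in all), so the 8 rises are close to the general rate and the 1 fall is below it. The median log2 fold change was 0.03 over the members and -0.01 over all genes. The genes that moved did so by different amounts and in both directions: HMOX1 rose 6.11-fold and TXNRD1 fell 3.29-fold, while NFE2L2, KEAP1, NQO1, GCLC and GCLM gave log2 differences between -0.16 and 0.04.

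Neither regulator passed the test. NFE2L2 stood at 128 (P15) and 145 (P3) CPM with control shRNA and at 126 and 138 with AXL shRNA, and these ranges overlap. Its log2 fold change was -0.05 (SE 0.27, adjusted p = 0.899). KEAP1 stood at 58.5 and 69.4 CPM with control shRNA and at 62.1 and 68.9 with AXL shRNA, again overlapping, with a log2 fold change of 0.03 (SE 0.13, adjusted p = 0.846) that was -0.15 on the log2(TPM + 1) scale.

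Of 8 genes that reduce quinones and carbonyls, 3 rose and none fell. AKR1B1, aldose reductase, stood at 1410 and 1429 CPM with control shRNA and at 5298 and 6094 with AXL shRNA. Those libraries lie far apart, with a log2 fold change of 2.005 (SE 0.16, adjusted p = 4.02e-04). AKR1B10, a close relative that reduces retinal and lipid aldehydes, stood at 3329 and 3748 CPM with control shRNA and at 9142 and 8552 with AXL shRNA. Its log2 fold change was 1.32 (SE 0.39, adjusted p = 0.034). CBR3 stood at 1.29 and 2.06 CPM with control shRNA and at 4.92 and 9.99 with AXL shRNA, a low level on which the log2 fold change was 2.15 (SE 0.40, adjusted p = 0.00616). The 3 AKR1C enzymes, which reduce steroids as well as xenobiotics, did not pass: AKR1C1 gave -0.34, AKR1C2 -0.15 and AKR1C3 -0.07, and NQO1 gave -0.16 with libraries at 1421 and 1415 CPM against 1244 and 1288.

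The glutathione genes gave no call among 6. GCLC and GCLM, the catalytic and modifier subunits of the enzyme that starts glutathione synthesis, gave log2 fold changes of -0.07 and 0.04. GSR, which returns oxidized glutathione to its reduced form, stood at 231 and 279 CPM with control shRNA and at 423 and 497 with AXL shRNA, and GPX2, which spends glutathione on peroxides, at 558 and 438 CPM against 1249 and 887. Both genes were higher in both AXL shRNA libraries than in either control, with log2 fold changes of 0.85 (SE 0.29, adjusted p = 0.055) and 1.10 (SE 0.57, adjusted p = 0.166). With the P number as a block, both passed, at adjusted p of 2.81e-04 and 2.23e-04.

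In the thioredoxin system the changes ran in opposite directions. TXN, thioredoxin, stood at 359 and 375 CPM with control shRNA and at 681 and 743 with AXL shRNA, a log2 fold change of 0.96 (SE 0.12, adjusted p = 0.00145). TXNRD1, the reductase that recharges it with NADPH, stood at 2023 and 2534 CPM with control shRNA and at 558 and 827 with AXL shRNA, a log2 fold change of -1.72 (SE 0.26, adjusted p = 0.00269). SRXN1, sulfiredoxin, which repairs over-oxidized peroxiredoxins, stood at 325 and 539 CPM against 274 and 430 and did not pass (log2 fold change -0.30, adjusted p = 0.563). Thus the carrier was higher and its reductase lower in both AXL shRNA libraries than in either control library.

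Among 5 genes that supply NADPH, TALDO1 and TKT rose. Both are enzymes of the non-oxidative pentose phosphate pathway. TALDO1 stood at 277 and 241 CPM with control shRNA and at 360 and 333 with AXL shRNA (log2 fold change 0.42, SE 0.13, adjusted p = 0.0444), and TKT at 1041 and 1095 CPM against 1591 and 1390 (0.48, SE 0.15, adjusted p = 0.0448). The dehydrogenases that make NADPH directly did not pass, with -0.23 for PGD, 0.37 for the malic enzyme ME1 and 0.09 for IDH1.

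Of 4 heme and iron genes, HMOX1 rose. This enzyme, which opens the heme ring and releases iron, stood at 230 and 259 CPM with control shRNA and at 1163 and 1823 with AXL shRNA, a log2 fold change of 2.61 (SE 0.37, adjusted p = 0.00223). The other genes of this group did not pass: BLVRB, a biliverdin reductase, gave -0.37, FTL 0.55 and FTH1 -0.27. Among the 5 remaining targets, UGDH, which makes UDP-glucuronic acid, rose from 488 and 455 CPM to 697 and 641 (log2 fold change 0.50, SE 0.13, adjusted p = 0.0229). It stood at 664 (P17) and 603 (P4) CPM in control cells and at 595 and 709 with TP-0903. The AXL shRNA libraries thus lay within the range of those cells, and the control shRNA libraries lay below it. EPHX1, the microsomal epoxide hydrolase, gave the lowest value that did not pass, -0.81 (adjusted p = 0.0979), from 540 and 449 CPM against 370 and 193.

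Among these 9 calls, those of AKR1B1, CBR3, TXN, TXNRD1 and HMOX1 were kept whichever library was left out. The 4 others were lost without any 1 of the 4 shRNA libraries, which leaves 4 rises in each case. The adjusted p was then 0.0863 to 0.139 for AKR1B10, 0.0687 to 0.195 for TALDO1, 0.0733 to 0.188 for TKT and 0.0575 to 0.104 for UGDH. Without AXL shRNA P15, EPHX1 passed as well, so that 2 members fell. TALDO1 was also lost without any 1 of the 4 other libraries (0.051 to 0.0647), and TKT without control P17 (0.0687) or control P4 (0.0692). On the log2(TPM + 1) scale AKR1B10 (0.0761), TALDO1 (0.35), TKT (0.336) and UGDH (0.129) did not pass. That scale moved the median of all genes to -0.15, with 2008 genes higher and 4404 lower, and the mitochondrial share that enters it differed between these groups. With the P number as a block, 12 members rose and 6 fell, against 25.6% and 26.1% of all genes. The genes added by the block were GSR, GPX2, ME1 and FTL among those that rose, and SRXN1, BLVRB, EPHX1, PIR and TRIM16L among those that fell. The AXL shRNA libraries lay above both control shRNA libraries for 14 members (42.4%) and below both for 11 (33.3%), against 34.4% and 35.5% of all genes. The part of the higher keratin, collagen and mitochondrial levels in these differences was not tested. In a bulk sample, fewer cells with a transcript and less of it per cell cannot be told apart.

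**Figure D2:**
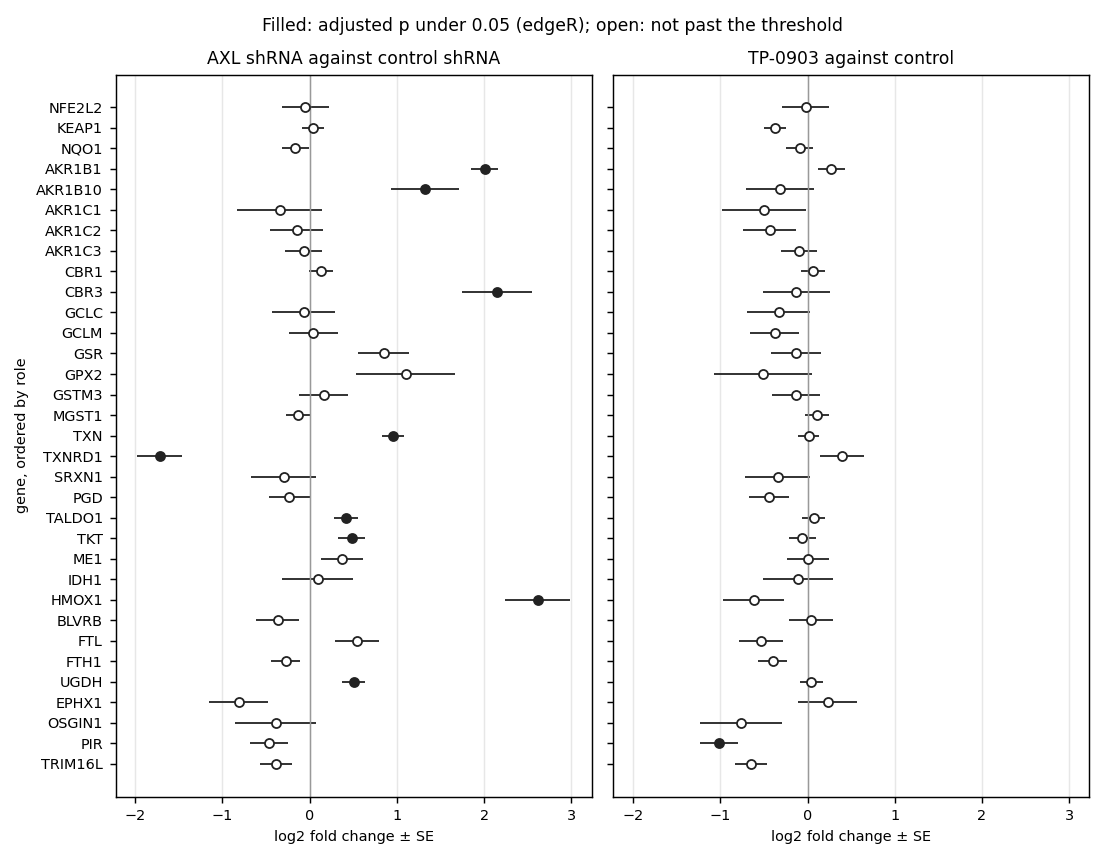
Log2 fold change with its SE for each of the 33 genes, ordered by role, with AXL shRNA against control shRNA on the left and TP-0903 against control on the right; filled points have an adjusted p under 0.05 in edgeR. On the left HMOX1, CBR3 and AKR1B1 lie at 2.005 or above and TXNRD1 at -1.72, and on the right PIR, at -1.01, is the filled point.

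With TP-0903, 1 of the 33 genes fell and 0 rose against control cells, where 6.35% of all genes tested fell and 4.90% rose (11.3% in all). The gene was PIR, pirin, an iron-binding nuclear protein. It stood at 45.1 (P17) and 60.0 (P4) CPM in control cells and at 20.7 and 31.4 with TP-0903, so both treated libraries were below both controls. The log2 fold change was -1.01 (SE 0.22, adjusted p = 0.0294). The call was lost without control shRNA P15 (adjusted p = 0.0503), control P17 (0.0611), TP-0903 P17 (0.152) or control P4 (0.153), and in the 4 libraries of the comparison alone (0.067). TRIM16L passed without control shRNA P15 or control shRNA P3, in the latter case beside PIR, so that 2 members fell. Over the 15 alternatives tried, the adjusted p of PIR ran from 4.55e-07 to 0.153.

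At an unadjusted p under 0.05, 4 members were lower and 0 higher, against 14.9% and 13.6% of all genes. The median log2 fold change of the 33 was -0.13, against -0.02 over all genes, and 10 of the 33 values were above 0. KEAP1 stood at 72.7 and 73.8 CPM in control cells and at 52.6 and 60.2 with TP-0903. Its libraries do not overlap, and its log2 fold change was -0.38 (SE 0.13, adjusted p = 0.102). NFE2L2 stood at 84.0 and 142 CPM in control cells and at 89.0 and 133 with TP-0903 (log2 fold change -0.02, SE 0.27, adjusted p = 0.972). For NFE2L2 the distance between libraries of different P number was thus larger than that between treated and control.

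With the P number as a block, more members passed. TRIM16L, a relative of the NRF2-responsive TRIM16, stood at 251 and 305 CPM in control cells and at 161 and 194 with TP-0903 (log2 fold change -0.65, SE 0.18, adjusted p = 0.0603, or 0.00592 once blocked). OSGIN1, an oxidative stress-induced growth inhibitor, stood at 24.8 and 71.5 CPM against 21.4 and 35.3 (-0.76, SE 0.47, adjusted p = 0.333, or 0.0286 once blocked). HMOX1 stood at 445 and 626 CPM against 234 and 463 (-0.62, SE 0.35, adjusted p = 0.298, or 0.0154 once blocked). In each of TRIM16L, OSGIN1 and HMOX1 the treated library was below the control of its own P number in both pairs. TRIM16, which shares 39.4% of the sequence windows of TRIM16L, went the other way in both pairs. It stood at 297 and 322 CPM in control cells and at 423 and 414 with TP-0903 (0.43, adjusted p = 0.111 in edgeR, or 0.0255 once blocked). The part of the division of shared reads in these opposite values was not tested. In all, 11 members fell with the block, against 13.4% of all genes: KEAP1, AKR1C1, AKR1C2, GCLM, GPX2, SRXN1, PGD, HMOX1, OSGIN1, PIR and TRIM16L. In that fit 1 member rose, against 12.9% of all genes: TXNRD1, at 2013 and 2692 CPM in control cells and 2720 and 3447 with TP-0903 (log2 fold change 0.40 and adjusted p = 0.0482, against 0.39 and 0.356 without the block). Treated libraries lay below both controls for 5 members (KEAP1, FTL, FTH1, PIR and TRIM16L) and above both for AKR1B1 and TXNRD1, where 30.9% and 28.9% of all genes did so. The mitochondrial share was higher in both TP-0903 libraries, and its part in these differences was not tested.

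The control groups of the experiments, control shRNA and control, differed in 2 of the 33 genes, which were both lower with the control shRNA; 6.09% of all genes were lower and 3.06% higher. AKR1B1 stood at 1410 and 1429 CPM with control shRNA and at 2569 and 2422 in control cells (log2 fold change -0.81, SE 0.15, adjusted p = 0.0228). TKT stood at 1041 and 1095 CPM against 1634 and 1742 (-0.66, SE 0.16, adjusted p = 0.0431). HMOX1, at 230 and 259 CPM against 445 and 626, did not pass (-1.13, SE 0.35, adjusted p = 0.0916), nor did NFE2L2 (0.28, adjusted p = 0.557) or KEAP1 (-0.20, adjusted p = 0.361). Leaving out any 1 of the 4 libraries compared removed the AKR1B1 call (0.0611 to 0.148), and leaving out any 1 of all 8 removed that of TKT (0.051 to 0.192). This comparison shares its libraries with those before it: AKR1B1 and HMOX1, which rose with AXL shRNA, did so from the lower of both control levels. TXN and CBR3 also rose from the lower control level, although neither passed between the control groups. TXN stood at 359 and 375 CPM with control shRNA and at 439 and 493 in control cells (-0.34, adjusted p = 0.118 in edgeR). CBR3 stood at 1.29 and 2.06 CPM against 2.70 and 3.32 (-0.84, adjusted p = 0.22). The AXL shRNA libraries of AKR1B1, HMOX1, TXN and CBR3 were also above every control and TP-0903 library. TKT, which likewise rose with AXL shRNA from the lower control level, stood at 1591 and 1390 CPM there, below both control libraries at 1634 and 1742 CPM.

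**Figure D3:**
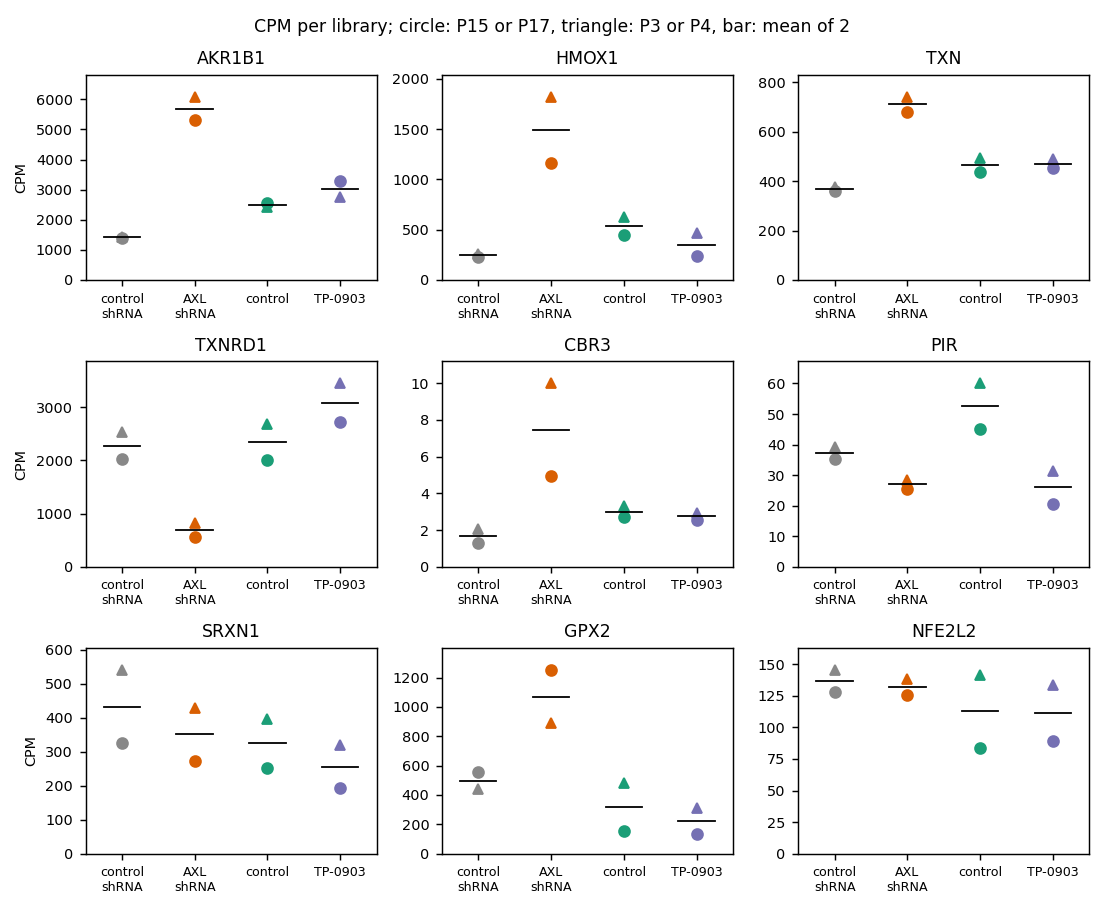
CPM of 9 genes in each of the 8 libraries by group, with circles for P15 or P17, triangles for P3 or P4 and a bar at the mean of both libraries. AKR1B1, HMOX1 and TXN are highest, and TXNRD1 lowest, in the AXL shRNA libraries, and the SRXN1 triangle is above the circle in every group.

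The hairpin and the inhibitor, both directed at AXL, were compared by testing the difference of their effects. Each effect is taken from its own control group, at P15 and P3 for the hairpin and at P17 and P4 for the inhibitor. Treatment, control group and P numbers cannot be told apart in this difference. With control shRNA against control, HMOX1 gave -1.13, CBR3 -0.84, AKR1B1 -0.81, TXN -0.34 and TXNRD1 -0.05. The difference of effects passed for 5 of the 33 genes: 1 was higher with TP-0903 than with AXL shRNA and 4 were lower, against 9.82% and 10.8% of all genes. On the log2(TPM + 1) scale the median of all genes was 0.14 in this test, with 2207 genes higher and 1266 lower. TXNRD1 was the higher, with a difference of log2 fold changes of 2.11 (SE 0.36, adjusted p = 0.00813): its values were -1.72 with AXL shRNA and 0.39 with TP-0903. HMOX1 gave a difference of -3.23 (SE 0.51, adjusted p = 0.00605), from 2.61 and -0.62. AKR1B1 gave -1.73 (SE 0.22, adjusted p = 0.00303), from 2.005 and 0.27. TXN gave -0.94 (SE 0.17, adjusted p = 0.00998), from 0.96 and 0.02. CBR3 gave -2.28 (SE 0.56, adjusted p = 0.028), and its call was lost without control shRNA P15 (0.0839), AXL shRNA P3 (0.0665), or any 1 of the control and TP-0903 libraries (0.0652 to 0.0907). All 5 were calls in the AXL shRNA comparison, and none of them passed with TP-0903 against control. Without AXL shRNA P15, EPHX1 passed as well, so that 2 members were higher. For NFE2L2 the difference was 0.03 with an SE of 0.38 (adjusted p = 0.968), and for KEAP1 it was -0.41 (SE 0.18, adjusted p = 0.145, or 0.0471 once blocked). With the block, 3 members were higher and 11 lower, against 18.6% and 18.4% of all genes. In the blocked fits of each effect, PIR, TRIM16L and SRXN1 passed as lower both with AXL shRNA and with TP-0903. HMOX1 and GPX2 passed as higher with AXL shRNA and lower with TP-0903, and TXNRD1 the reverse.

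By P number, the NRF2 targets that passed all differed in 1 direction. In a fit with 1 term per group and the P number in 2 levels, 5 of the 33 genes were higher at P3 and P4 than at P15 and P17 and 0 were lower, against 2.68% and 2.24% of all genes. The 5 were SRXN1, GCLC, BLVRB, IDH1 and TXNRD1, from the thioredoxin, glutathione, heme and NADPH groups. At an unadjusted p under 0.05, 17 members were higher and 0 lower, against 9.53% and 9.02% of all genes. The log2 difference was above 0 for 30 of the 33, with a median of 0.31, against -0.01 over all genes. The contrasts of P number are P3 against P15 and P4 against P17, each seen in 2 groups. Libraries of the same P number were correlated, and the fit counts them as separate. Its p-values and the agreement between groups therefore do not measure the spread between cultures of different P number.

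SRXN1 changed most evenly. It was at 325 CPM (P15) and 539 (P3) with control shRNA, 274 and 430 with AXL shRNA, 252 (P17) and 397 (P4) in control cells, and 193 and 319 with TP-0903. The low number was the higher in every group, with log2 ratios of 0.73, 0.65, 0.66 and 0.73 and a fitted difference of 0.69 (SE 0.07, adjusted p = 0.00588). GCLC was at 167 and 250 CPM with control shRNA, 182 and 215 with AXL shRNA, 175 and 305 in control cells, and 134 and 248 with TP-0903. All 4 libraries of low number were above all 4 of high number, with a difference of 0.63 (SE 0.11, adjusted p = 0.0269).

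IDH1, the cytosolic isocitrate dehydrogenase, was at 309 and 401 CPM with control shRNA, 338 and 418 with AXL shRNA, 206 and 371 in control cells, and 165 and 369 with TP-0903. Its low-number libraries were likewise all above the others (difference 0.67, SE 0.15, adjusted p = 0.0462). BLVRB was at 115 and 142, 89.9 and 109, 81.1 and 129, and 92.1 and 124 CPM in the same order (0.42, SE 0.08, adjusted p = 0.0379). TXNRD1, whose AXL shRNA level is far below the others, rose from 2023 to 2534, 558 to 827, 2013 to 2692 and 2720 to 3447 CPM (0.41, SE 0.09, adjusted p = 0.0462). NFE2L2 itself was at 126 to 128 CPM (P15) and 138 to 145 CPM (P3) in the shRNA libraries, and at 84.0 to 89.0 CPM (P17) and 133 to 142 CPM (P4) in the others. All its low-number libraries were above all its high-number libraries, yet the difference of 0.41 (SE 0.12) did not pass (adjusted p = 0.0991). NFE2L2 passed in 4 of the 16 alternatives. These were edgeR without a filter (0.0185), with the term averaged over both sets of libraries (0.00818) or in the control and TP-0903 libraries alone (0.0133), and the DESeq2 test (0.0292). KEAP1 gave 0.15 (SE 0.07, adjusted p = 0.303).

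Counted library by library, 17 of the 33 genes were higher at the low number in all 4 groups and 0 were lower in all 4, against 13.2% and 13.7% of all genes. The 17 include NFE2L2 and KEAP1, all 3 thioredoxin genes, and GCLC, GCLM, GSR and GSTM3 of the glutathione genes. All low-number libraries were above all high-number libraries for 4 members (NFE2L2, GCLC, GSTM3 and IDH1) and below for 0, against 1.60% and 1.30% of all genes. The SRXN1 call was kept whichever library was left out. Those of GCLC (0.0973 to 0.117), IDH1 (0.109 to 0.151) and BLVRB (0.112 to 0.139) were lost without any 1 of the control shRNA, control and TP-0903 libraries. The TXNRD1 call was lost without any 1 of the 8 (0.0922 to 0.145). Leaving out any control shRNA, control or TP-0903 library therefore left 1 member past the threshold. On the log2(TPM + 1) scale SRXN1 passed and the 4 others did not (0.0731 to 0.0926).

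**Figure D4:**
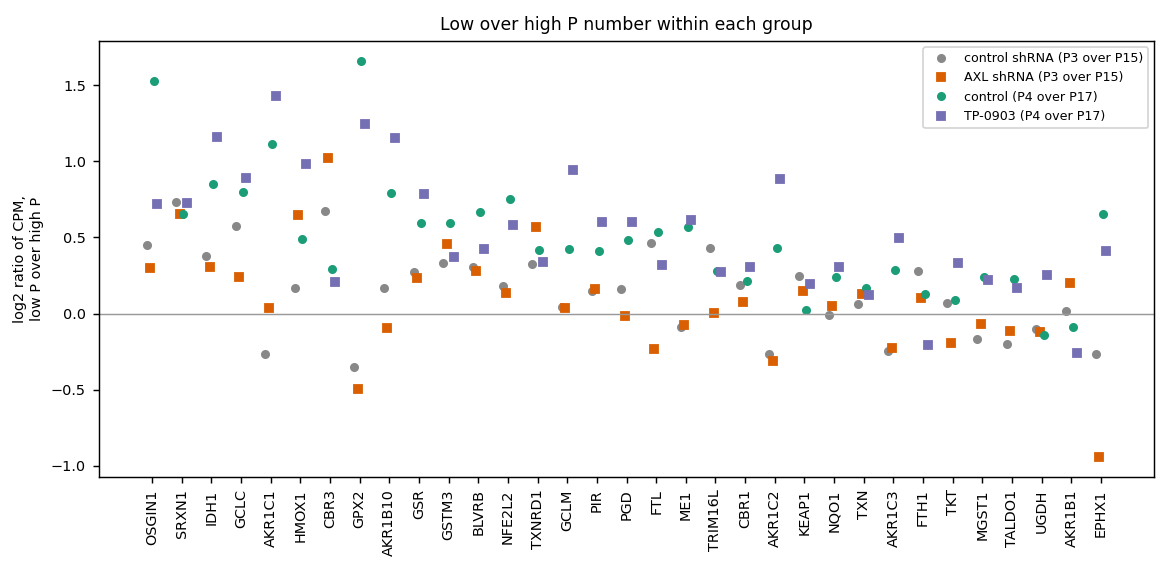
Log2 ratio of CPM at the low over the high P number for each of the 33 genes, 1 point per group, with genes ordered by the mean of their 4 ratios. Most points of the control and TP-0903 groups lie above 0, whereas those of both shRNA groups lie nearer 0, and SRXN1 has all 4 points between 0.65 and 0.73.

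The P number difference was then taken separately in each set of libraries. Between P17 and P4, 31 of 33 members were higher at the low number both in control cells (median log2 ratio 0.43) and with TP-0903 (0.43). Between P15 and P3, 23 were higher with control shRNA (median 0.17) and 21 with AXL shRNA (0.076). In a fit of the control and TP-0903 libraries alone, 17 members were higher at P4 and 0 lower, against 3.38% and 3.08% of all genes. They included GPX2 at 1.45 (adjusted p = 0.0037), AKR1C1 at 1.27 (0.00329), OSGIN1 at 1.14 (0.0231), IDH1 at 1.005 (0.005), AKR1B10 at 0.97 (0.00971), GCLC at 0.85 (0.00503) and NFE2L2 at 0.67 (0.0133). In a fit of the shRNA libraries alone, 1 was higher at P3, SRXN1 at 0.70 (0.0364), and 0 lower, against 1.10% and 2.23% of all genes. Each of these fits rests on 4 libraries, and counts libraries of the same P number as separate. Their deviations from group means correlated at 0.626 between control and TP-0903 and at 0.559 between the shRNA groups. The adjusted p-values of these fits therefore do not measure the spread between cultures of different P number.

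The difference between both sets of libraries was tested directly and passed for 2 members, both with a smaller value in the shRNA libraries, against 0.945% of all genes lower and 0.260% higher. This test sets P3 against P15 beside P4 against P17, and it too counts correlated libraries of the same P number as separate. GPX2 was at 558 (P15) and 438 (P3) CPM with control shRNA and 1249 and 887 CPM with AXL shRNA, but at 151 (P17) and 478 (P4) CPM in control cells and 131 and 311 with TP-0903. The sign was opposite in both sets, and the difference of log2 ratios was -1.87 (SE 0.18, adjusted p = 0.00694). AKR1C1 was at 1371 and 1141 CPM with control shRNA, 977 and 1002 with AXL shRNA, and at 542 and 1174 CPM in control cells and 329 and 887 with TP-0903. Its difference was -1.39 (SE 0.19, adjusted p = 0.0177), and the call was lost without TP-0903 P17 (0.199) or TP-0903 P4 (0.0508). Without TP-0903 P17, 1 member passed, and without control shRNA P15 or control shRNA P3, 6 and 4 did. At an unadjusted p under 0.05, 17 members had a smaller value in the shRNA libraries and 0 a larger one, against 7.50% and 4.85% of all genes. AXL was higher at P3 than at P15 in both shRNA groups and lower at P4 than at P17 in the other groups, with a difference of 1.41 (SE 0.19, adjusted p = 0.0177) that was lost without TP-0903 P17 (0.147).

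Seen by library, the control P4 library had the highest NRF2 target levels and the TP-0903 P17 library the lowest. In control P4, 28 of 33 members were above their own mean over the 8 libraries, with a median log2 deviation of 0.27. In TP-0903 P17, 3 were above, with a median of -0.36, and in control P17, 11 were above, with a median of -0.205. The other 5 libraries had 15 to 22 members above the mean and medians between -0.01 and 0.10. The 2 control libraries thus lie further apart (-0.205 and 0.271) than the TP-0903 and control libraries at either number.

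A list of 33 further genes of the pathway, 8 regulators and 25 targets, gave the wider picture. With AXL shRNA, 7 of them rose and 6 fell, where 18.5% and 19.0% of all genes did so. The 3 with the smallest p all rose: UGT1A6, a glucuronosyltransferase, at 2.03 and 1.35 CPM with control shRNA but 68.5 and 77.1 with AXL shRNA (log2 fold change 5.43, SE 0.33, adjusted p = 3.15e-04), GSTO1, a glutathione transferase, at 1.14 (SE 0.10, adjusted p = 5.55e-04), and PRDX6, a peroxiredoxin, at 0.93 (SE 0.11, adjusted p = 0.00106). UGT1A6 shares exons with the other genes of its cluster, so its level is uncertain. PRDX1 at 1.01, GSTP1 at 1.09, ABCC1 at 0.68 and the KEAP1-binding SQSTM1 at 1.19 also rose. PRDX1 (-0.69, adjusted p = 0.028 in edgeR), GSTO1 (-0.43, 0.0435) and PRDX6 (-0.43, 0.0496) were lower with control shRNA than in control cells. They thus rose from the lower control level, and their AXL shRNA libraries were also above both control libraries. CUL3 at -0.91, the NRF2 partner MAFK at -0.94, the related factor NFE2L1 at -1.02, GPX4 at -0.61, ABCC3 at -0.92 and SLC48A1 at -1.16 fell. Between the control groups, 3 of the 33 were higher with control shRNA and 4 lower, against 3.06% and 6.09% of all genes. MAFK (1.16, adjusted p = 0.026 in edgeR) and ABCC3 (1.22, 0.018) were among the higher, so both fell from the higher control level. MAFK stood at 194 (P15) and 170 (P3) CPM with AXL shRNA and at 119 (P17) and 192 (P4) in control cells. ABCC3 stood at 728 and 489 CPM against 432 and 556. With the block, 22 of the 33 passed with AXL shRNA against control shRNA in place of 13, where 25.6% of all genes rose and 26.1% fell.

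With TP-0903, 0 of these 33 passed in edgeR. An unadjusted p under 0.05 was reached by 3 of them, 2 higher and 1 lower, against 13.6% and 14.9% of all genes, and 3 passed with the block, where 12.9% of all genes rose and 13.4% fell. The 3 with the smallest p were TRIM16 at 0.43 (adjusted p = 0.111, or 0.0255 once blocked), FECH at -0.24 (0.161) and MAFG at 0.29 (0.171). By P number, 5 were higher at the low number and 0 lower, against 2.68% and 2.24% of all genes. The difference was above 0 for 30 of the 33 and for 8514 of all 17676 genes. CES1, a carboxylesterase, was at 48.6 and 264 CPM with control shRNA, 17.3 and 81.6 with AXL shRNA, 11 and 165 in control cells and 18.1 and 172 with TP-0903. It was higher at the low number in every group, by 2.95 on the log2 scale (SE 0.27, adjusted p = 0.00494). NR0B1, an orphan nuclear receptor, differed by 1.65 (SE 0.20, adjusted p = 0.00835), a call lost without control shRNA P15 (0.0601) or P3 (0.0581). CUL3 differed by 0.48 (SE 0.07, adjusted p = 0.0151), lost without any 1 of the control shRNA and TP-0903 libraries (0.0715 to 0.0757). GLRX at 0.60 and NQO2 at 0.39 were the other two.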

How the data were processed

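The 33 members and all gene lists were chosen with earlier results of these data known. Reads were aligned to GRCh38 with STAR 2.5.3a and quantified with RSEM, per the submitters' processing notes (RSEM version and annotation: not given in the sources used here). Per the file headers, the authors deposited RSEM expected counts, which are unnormalized estimates, together with TPM, scaled for length and depth, and FPKM, which was not tested. Of the genes, 58039 matched GENCODE 29 by ID. Expected counts were rounded, filtered with filterByExpr (17676 genes kept, all 33 members among them), scaled by TMM and tested with edgeR 4.0.16 (R 4.3.3), with Benjamini-Hochberg adjustment over all genes and a threshold of 0.05, two-sided. The SE is the log2 fold change over the square root of F. Named genes were the members past the threshold, both regulators, AXL, and the 3 further pathway genes of smallest p; the other pathway genes past the threshold were named after their values were seen. Deviations from group means correlated at 0.559 and 0.626 between groups of the same P numbers and at 0.177 to 0.38 otherwise, so the P number was taken to pair libraries and a block fit is given beside results whose call it changed. Replicates were not duplicates: 50.7% to 56.9% of genes differed beyond counting error. Alternatives were DESeq2 1.42.0 (size factors, test), no filter, limma 3.58.1 on log2(TPM + 1), the deposited effective lengths as offsets, the block, subsets of libraries and each library left out.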

Additional observations from a re-analysis of the deposited data

Results flagged for a closer look

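The P number difference was not the same in the shRNA libraries (P3 against P15) as in the control and TP-0903 libraries (P4 against P17) for 5 of the genes followed, by a test of that difference in edgeR. The difference of log2 ratios was -1.875 for GPX2 (adjusted p = 0.00694), -1.386 for AKR1C1 (0.0177), -1.231 for CES1 (0.0394), -1.528 for CYP4F11, a fatty acid hydroxylase (0.0249), and 1.408 for AXL (0.0177). The test counts correlated libraries of the same P number as separate. GPX2 passed whichever library was left out. CES1 was lost without control P17 (0.138), TP-0903 P17 (0.0861) or control P4 (0.129), and CYP4F11 without TP-0903 P17 (0.202).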

How the results depend on the processing

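Direction and side of the threshold were kept for AKR1B1, CBR3, TXN, TXNRD1 and HMOX1 with AXL shRNA, for AKR1B1, TXN, TXNRD1 and HMOX1 in the difference of effects, for SRXN1 by P number and for GPX2 between sets of libraries, in all alternatives run for each. With the replicate block, the AXL shRNA effect had 12 members higher and 6 lower, against 25.6% and 26.1% of all genes. The TP-0903 effect had 1 higher and 11 lower (4647 genes in all), against 12.9% and 13.4%. The difference of effects had 3 higher and 11 lower (6530 genes), against 18.6% and 18.4%. The block did not cost any member its call. Without a filter on low counts, 4 members fell with AXL shRNA, where 3815 genes rose and 3962 fell. TALDO1 lost its call there. GSR, GPX2 and FTL gained one as higher, and EPHX1, PIR and TRIM16L as lower. With TP-0903, 7 fell (3515 genes, 1682 higher and 1833 lower). Between the control groups 4 rose and 4 fell (3352 genes, 1683 higher and 1669 lower). The difference of effects had 2 higher and 8 lower (2509 genes higher and 2517 lower). At the low P number 10 were higher (1544 genes, 790 higher and 754 lower). The fits by DESeq2, limma and effective lengths used the same 17676 genes as the main fit. By the DESeq2 test, 2 members fell with AXL shRNA (3495 genes higher, 3303 lower), and GSR and FTL also passed as higher. With TP-0903, 2 fell (1433 genes higher, 1468 lower). Between the control groups 1 rose and 4 fell (2654 genes, 1140 higher and 1514 lower). By P number 10 were higher (1465 genes, 773 higher and 692 lower). By limma on log2(TPM + 1), 4 rose and 4 fell with AXL shRNA (2008 genes higher, 4404 lower), and KEAP1 was -0.154 there. With TP-0903, 2 fell (656 genes higher, 1059 lower), and 1 fell between the control groups (438 genes higher, 905 lower). By P number 1 was higher (126 genes, 70 higher and 56 lower). With effective lengths as offsets, 1 fell between the control groups (406 genes higher, 877 lower), the P number gave 576 genes, and NFE2L2 with TP-0903 was 0.00126. TALDO1 (adjusted p = 0.0645 in edgeR) and TKT (0.0788) then lost their AXL shRNA calls, and IDH1 (0.0514) its P number call. With the P number in 2 levels as a term, 1 rose and 4 fell between the control groups (2968 genes, 1282 higher and 1686 lower). In the 4 libraries of a comparison alone, 0 fell with TP-0903 (729 genes higher, 887 lower) and 1 between the control groups (743 genes, 196 higher and 547 lower). TALDO1 (adjusted p = 0.0682 in edgeR) and TKT (0.0656) lost their AXL shRNA calls there. With the P number term averaged over both sets of libraries, 15 members were higher (1749 genes, 944 higher and 805 lower). In the control and TP-0903 libraries only, 17 were higher, against 3.38% of genes higher and 3.08% lower. In the shRNA libraries only, 1 was higher (564 genes, 1.10% higher and 2.23% lower), and AXL was 0.459.

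Leaving out 1 library gave, with AXL shRNA, 4 to 8 members higher, 1 to 2 lower and 4408 to 6105 genes, with NFE2L2 from -0.148 to 0.0396 and KEAP1 from -0.0951 to 0.157. With TP-0903 it gave 0 to 2 lower and 489 to 1727 genes, with NFE2L2 from -0.337 to 0.425 and AXL from -0.0636 to 1.06. Between the control groups it gave 0 to 1 lower and 343 to 1277 genes, with NFE2L2 from -0.0551 to 0.709. The difference of effects had 1 to 2 higher and 1855 to 2670 genes, with NFE2L2 from -0.286 to 0.478. The P number gave 1 to 5 higher and 113 to 689 genes, with AXL from -0.586 to 0.0148, and its difference between sets of libraries 1 to 6 lower and 22 to 750 genes. A lone library left in a group was taken to vary like the others. The cause of these changes was not tested. With 2 libraries a group, the SE of NFE2L2 was 0.27 in both main comparisons, and 0.0990 with AXL shRNA and 0.0996 with TP-0903 once blocked.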
